A study of Bos taurus with 48 samples.

Results

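The 5 miRNAs described here are those that the striated muscle literature knows as myomiRs: bta-miR-1, bta-miR-133a, bta-miR-133b, bta-miR-206 and bta-miR-499, named as in the deposited table of cattle (Bos taurus). They were chosen by name, and each name matched 1 row, so the group holds 5 of the 524 miRNAs in the table. The series measured small RNA by sequencing in 48 tissue samples taken immediately after slaughter: 15 of mammary parenchyma, the glandular part of the udder, 16 of the mammary fat pad, in which that gland grows, and 17 of liver. In each tissue the animals had been fed milk replacer ad libitum, a restricted amount of milk replacer, or a control diet, which the labels do not describe further. Parenchyma had 6 ad libitum, 6 restricted and 3 control samples, fat pad had 6, 6 and 4, and liver had 6, 6 and 5. The labels name no strain, sex, age or genetic change for any group, and they do not say whether samples with the same number came from 1 animal.

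A miRNA is a short RNA that is loaded into an Argonaute protein and guides it to messenger RNAs that pair with its seed, a short stretch near its 5′ end. miR-1, miR-206 and the miR-133 miRNAs are transcribed as shared precursors from paired genes, under the control of muscle factors such as MyoD, myogenin, MEF2 and SRF, and they are among the most abundant miRNAs of heart or skeletal muscle. miR-1 and miR-206 share their seed and are known for promoting muscle differentiation, miR-133a and miR-133b share another seed and are known for sustaining myoblast proliferation and restraining SRF, and miR-499 lies in an intron of a myosin heavy chain gene and is known for its link to the slow fibre programme.

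In the bovine RefSeq annotation (assembly ARS-UCD2.0, used here for names and neighbours only) MIR1-1 lies beside MIR133A-1 on chromosome 13, and MIR1-2 lies beside MIR133A-2 on chromosome 24, within MIB1. MIR206 lies beside MIR133B on chromosome 23. MIR499 lies on chromosome 13 within MYH7B, the myosin heavy chain gene that hosts it. The table gives miR-1 and miR-133a 1 row each, so the 2 gene copies of each could not be told apart. MIR133C overlaps MIR133A-1 in the annotation. Its miRNA, bta-miR-133c, is no member of the group. It was above 0 in 14 of 15 parenchyma, 2 of 16 fat pad and 0 of 17 liver samples, with a highest value of 31.2, and reads shared with miR-133a could not be traced.

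Values are normalised read counts, that is reads divided by 1 size factor per library, as the authors deposited them. The low values of every library were whole multiples of 1 step, and where 1 step is taken as 1 read, the libraries held 6193678 to 11291532 miRNA reads in parenchyma, 2123962 to 9522666 in fat pad and 826776 to 5146724 in liver. No library lists a value between 0 and 6 steps, so a 0 may stand for up to 5 reads. That limit of 6 reads corresponds to a normalised read count of 1.58 to 3.47 in parenchyma, 2.99 to 14.0 in fat pad and 5.68 to 37.2 in liver, which makes liver the least sensitive tissue. The hepatocyte list (miR-122, miR-192, miR-194), summed over its rows, lay between 970063 and 1763630 in liver and at or below 14507 in every mammary sample. The epithelial list, led by the miR-200 family, was at 61371 to 110903 in the 12 parenchyma samples of milk replacer fed animals, but at 92.5 to 421 in the 3 control parenchyma samples, close to the fat pad (17.4 to 436). These 3 libraries thus lacked the epithelial markers of their label, and calls between tissues are given with and without them.

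Most members were present everywhere, and 2 were rare. miR-1, miR-133a and miR-499 were above 0 in 48 of 48 samples, whereas miR-133b was above 0 in 12 and miR-206 in 7. By mean over all samples miR-1 ranked 134 of the 524 miRNAs, miR-133a 210, miR-499 239, miR-133b 393 and miR-206 430. Even miR-1 made up only 0.0270% of the summed normalised read counts. The table has no row for miR-208a or miR-208b, the other miRNAs of myosin genes, and these were not analysed here.

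miR-1 was present at a like level in the 3 tissues. Its normalised read count in parenchyma ranged from 412 to 2298 with a median of 786 (1047 ± 637, SD, n = 15). In fat pad it ranged from 465 to 2820 with a median of 1236 (1363 ± 812, SD, n = 16), and in liver from 64.4 to 2914 with a median of 1233 (1279 ± 740, SD, n = 17). The 3 ranges overlap almost wholly. With limma on log2(value + 1), feeding group as a covariate and Benjamini-Hochberg adjustment over all miRNAs tested, no pair of tissues differed past the threshold of 0.05. The log2 fold change was -0.29 for parenchyma against fat pad (95% confidence interval -0.82 to 0.25, adjusted p = 0.317), -0.06 for parenchyma against liver (-0.76 to 0.64, adjusted p = 0.901) and 0.24 for fat pad against liver (-0.41 to 0.89, adjusted p = 0.491). With the deposited size factors, the intervals leave room for tissue differences of up to 0.89 on the log2 scale. With libraries rescaled to an equal sum, parenchyma against liver was 0.54 (SE 0.34), so this limit depends on the scaling.

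miR-133a was higher in parenchyma than in either other tissue. In parenchyma its normalised read count ranged from 158 to 560 with a median of 304 (300.4 ± 103, SD, n = 15). In fat pad it ranged from 70.3 to 438 with a median of 169 (182.7 ± 105, SD, n = 16), and in liver from 29.9 to 436 with a median of 152 (181 ± 117, SD, n = 17). The tissue ranges overlap, with the lowest parenchyma sample above the lowest values of both others. By limma the log2 fold change was 0.89 against fat pad (SE 0.21, adjusted p = 0.000242) and 1.02 against liver (SE 0.26, adjusted p = 0.00077). Fat pad and liver differed by 0.15 (95% confidence interval -0.31 to 0.60, adjusted p = 0.554). With the 3 control samples of parenchyma left out, the fold changes were 0.97 (adjusted p = 0.000409) and 1.003 (adjusted p = 0.00358). Such calls were common: 79.5% of the 336 miRNAs tested differed between parenchyma and fat pad, 73.8% of 343 between parenchyma and liver, and 78.5% of 325 between fat pad and liver.

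miR-499, the miRNA of the myosin intron, had the opposite order of means. Its normalised read count ranged from 44.7 to 157 with a median of 86.9 in parenchyma (89.9 ± 35.6, SD, n = 15), and from 45.0 to 175 with a median of 109 in fat pad (102 ± 30.7, SD, n = 16). In liver it ranged from 35.8 to 440 with a median of 108 (148 ± 94.1, SD, n = 17). The liver samples thus spanned both mammary ranges. Parenchyma against liver gave a log2 fold change of -0.54 (SE 0.23, limma, adjusted p = 0.0393), but the call was lost without the 3 control parenchyma samples (adjusted p = 0.0523), and the direction of the fold change turned to 0.060 when each library was rescaled to an equal sum. The other pairs did not pass, at -0.19 for parenchyma against fat pad (adjusted p = 0.299) and -0.35 for fat pad against liver (adjusted p = 0.119, and 0.0333 without ad libitum liver replicate 15). The call against liver was lost in 11 of 32 fits that left out 1 sample (adjusted p up to 0.0719). These samples were ad libitum replicates 3, 6 and 11 and restricted replicates 5 and 10 of parenchyma, and ad libitum replicates 9 and 11, restricted replicates 4, 13 and 16 and control replicate 2 of liver. In counts of members called by limma, miR-133a was higher in parenchyma in both of its comparisons, miR-499 was lower in parenchyma than in liver, and fat pad against liver had none.

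Summed normalised read counts differed between the tissues, and with each library rescaled to a sum of 1000000 the midpoint of the log2 fold changes over every tested miRNA moved from 0.43 to 0.61 for parenchyma against fat pad, from 0.34 to 0.76 for parenchyma against liver and from 0.21 to 0.36 for fat pad against liver. The same scaling turned the sign of miR-1 and miR-499 in both comparisons of parenchyma, with none of the 4 past the threshold, while miR-133a stayed higher in parenchyma.

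**Figure D1:**
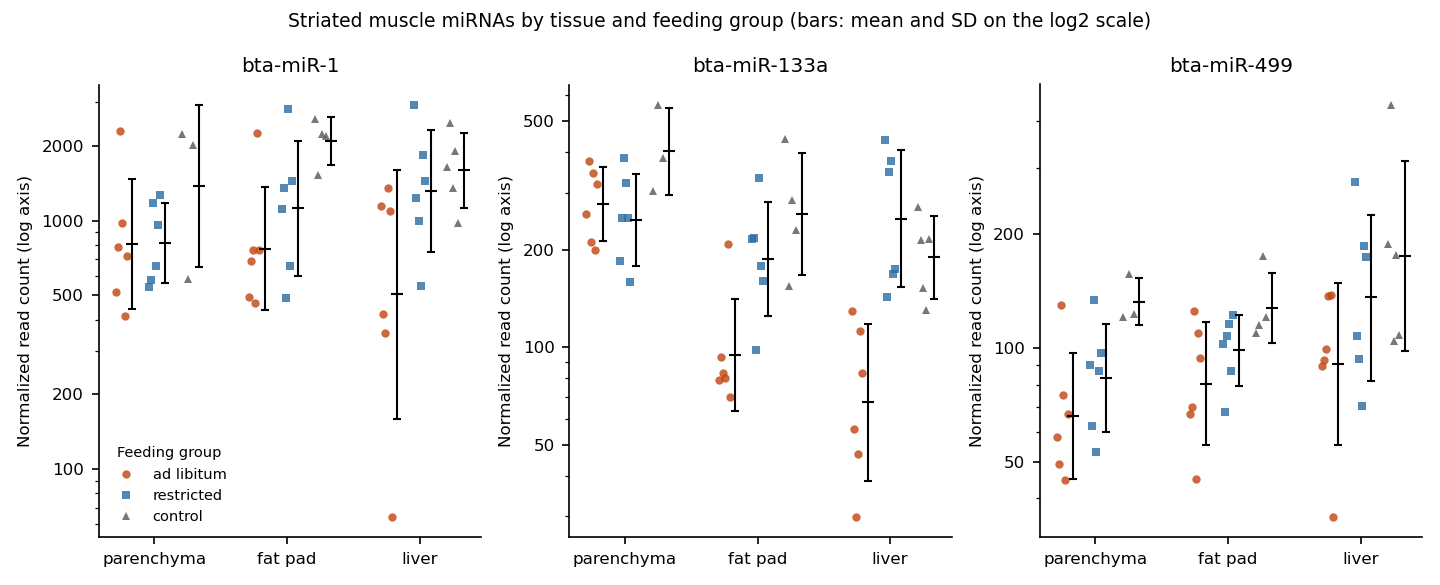
Normalised read count (log axis) of miR-1, miR-133a and miR-499 in each of the 48 samples, by tissue and feeding group. Points are samples, and the black bars give the mean and SD on the log2(value + 1) scale. miR-133a in the 6 ad libitum livers (29.9 to 129) lies below all 6 restricted livers (142.8 to 436), while miR-1 reaches its lowest value, 64.4, in 1 ad libitum liver.

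The ratio of the 2 members that are transcribed together does not depend on the size factors, since both come from the same library. It compares miRNAs of similar length, but ligation can favour one of them, so its differences between tissues are of more use than its level. The ratio of miR-1 to miR-133a had a median of 2.83 in parenchyma (1.04 to 10.8), 7.61 in fat pad (3.68 to 10.9) and 8.63 in liver (0.771 to 28.9). Parenchyma thus had less miR-1 for its miR-133a, and fat pad was the most even tissue. The mean log2 ratio was 1.66 ± 0.91 (SD, n = 15) in parenchyma, 2.85 ± 0.45 (SD, n = 16) in fat pad and 2.77 ± 1.24 (SD, n = 17) in liver. Parenchyma was lower by a log2 difference of -1.20 than fat pad (permutation test with 100000 resamples, two-sided, p = 0.00012, adjusted p = 0.00036 over the 3 tissue pairs). Against liver the difference was -1.11 (permutation test, p = 0.00832, adjusted p = 0.0125), and fat pad and liver differed by 0.08 (permutation test, p = 0.816). With the 3 control samples of parenchyma left out, the differences were -1.22 and -1.14 (permutation tests, adjusted p = 0.00036 and 0.0148).

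Within tissues, miR-1 and miR-133a went together clearly in fat pad. Across the 16 fat pads, Pearson's r of the log2 values was 0.871 (permutation test, p = 5.0e-05, adjusted p = 0.00015 over 3 tissues) and the rank correlation, Spearman's rho, 0.797 (p = 0.00042 by permutation test, adjusted p = 0.00126). Leaving out the 2 samples farthest from the median of miR-1 gave r = 0.851. Taken as deviations from the feeding group means, r was 0.837 (permutation test, adjusted p = 0.00018), and 0.648 without the 2 farthest samples, so the relation was also present within feeding groups. In the 17 livers r was 0.463 and rho 0.402 (permutation tests, p = 0.0624 and 0.109, adjusted p = 0.0936 and 0.164), and r fell to 0.283 without the 2 farthest samples. The livers thus gave no relation past the threshold. As deviations from the feeding group means, r in liver was 0.055 (permutation test, adjusted p = 0.840). In the 15 parenchyma samples r was 0.05 and rho 0.171 (permutation tests, p = 0.865 and 0.544), with r = 0.202 without the 2 farthest samples. On the deviations r in parenchyma was -0.215 (permutation test, adjusted p = 0.662). Whether the correlations themselves differ between tissues was not tested.

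**Figure D2:**
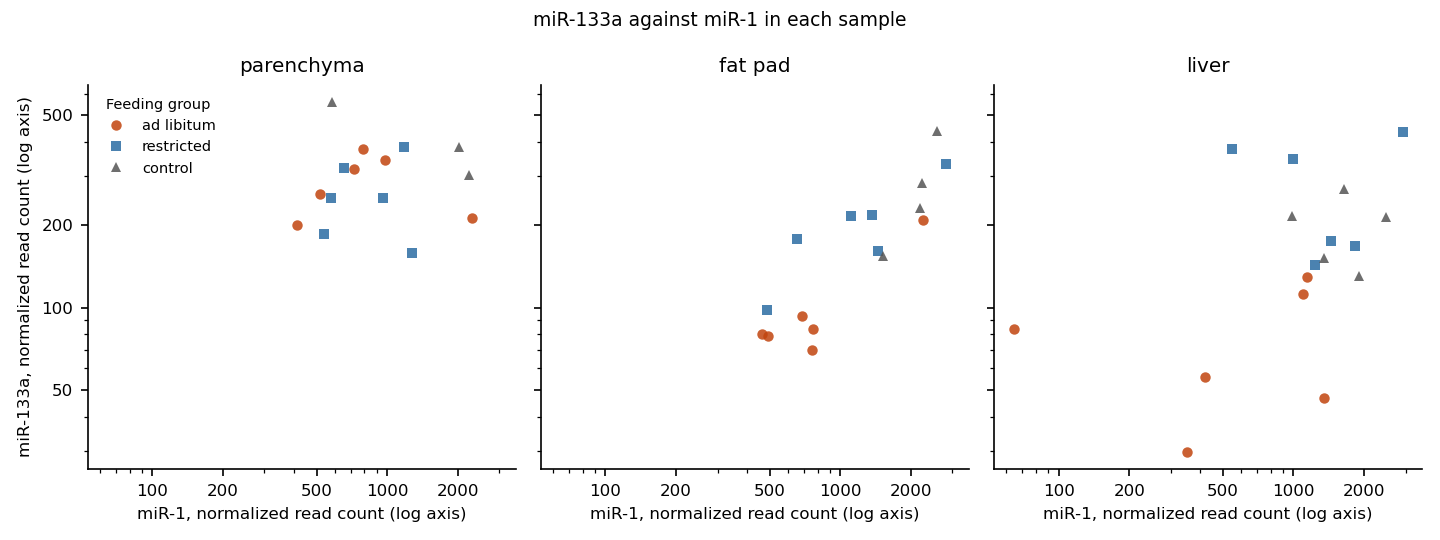
miR-133a against miR-1 in each sample, as normalised read counts on log axes, with 1 panel per tissue and the feeding group as marker. The 16 fat pads fall along a rising band (r = 0.871), the 15 parenchyma samples do not (r = 0.05), and 1 ad libitum liver sits apart at a miR-1 value of 64.4.

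miR-1 went with miR-499 in all 3 tissues, which is hosted by another gene. This pair was examined after the values were seen, with 6 relations in its family. The values kept the differences between feeding groups, and no deviations from feeding group means were taken within a tissue. Both miRNAs had negative log2 fold changes of milk replacer against control in each tissue. The part of feeding group in these relations was not tested. Pearson's r was 0.641 in parenchyma (rho 0.600), 0.631 in fat pad (rho 0.656) and 0.852 in liver (rho 0.877). The adjusted p of r was 0.0223, 0.0223 and 6.0e-05, and that of rho 0.0420, 0.0229 and 6.0e-05 (permutation tests, unadjusted p of r 0.0111, 0.00757 and 1.0e-05, and of rho 0.0210, 0.00764 and 1.0e-05, where 1.0e-05 is the smallest these resamples can give). Leaving out the 2 samples farthest from the median of miR-1 gave 0.540, 0.625 and 0.833. For miR-133a and miR-499, r was 0.262, 0.492 and 0.312 in parenchyma, fat pad and liver, with rho of 0.264, 0.438 and 0.338, and none passed (permutation tests, p of r 0.344, 0.0507 and 0.225, adjusted 0.344, 0.0760 and 0.270, and p of rho 0.339, 0.0924 and 0.184, adjusted 0.339, 0.139 and 0.221). Without the 2 farthest samples r was 0.131, 0.547 and 0.367.

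Likeness to all other miRNAs that passed the filter was described by Spearman's rho over the 48 samples, which share their size factors, with no test. The miRNA most like miR-1 was miR-499 (rho 0.719, first of 344), followed by miR-2285av at 0.514, and the miRNA most like miR-499 was miR-1, followed by miR-7 at 0.590. miR-133a stood apart from both: its nearest miRNA was miR-1271 (rho 0.560), miR-1 came 39th at 0.347 and miR-499 came 147th at 0.10. On deviations from the 9 group means, miR-1 was nearest to let-7f-1 (r 0.698), with miR-499 at rank 4 (0.681), miR-499 was again nearest to miR-1, and miR-133a was nearest to miR-339b (r 0.467).

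The rare members were near the limit of detection. miR-133b, whose gene lies beside that of miR-206, was above 0 in 9 of 15 parenchyma samples, with values from 2.76 to 38.7 that correspond to 6 to 79 reads. It was highest in control replicate 18, and both milk replacer groups held samples above 0 (4 of 6 ad libitum, 3 of 6 restricted). In fat pad it was above 0 in 1 of 16 samples, at 3.49 or 7 reads. In liver it was above 0 in 2 of 17 samples, both of the control group, at 6.63 and 7.29. Most parenchyma values are below what 6 reads amount to in many livers, so the difference from liver was not resolved at this depth.

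miR-206, which is known as a miRNA of skeletal rather than cardiac muscle, had another pattern. It was above 0 in 6 of 16 fat pads, 3 ad libitum and 3 restricted, at 3.89 to 7.11 or 6 to 13 reads. In parenchyma only 1 of 15 samples was above 0, control replicate 1, at 8.14 or 16 reads. In liver it was at 0 in 17 of 17 samples, which allows up to 5 reads per library. Of the 16 fat pads, those above 0 were mostly deeper libraries, as the plot of rare members shows. Neither miR-133b nor miR-206 reached the mean of 10 needed for a test in any comparison, so no fold change is given for them.

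**Figure D3:**
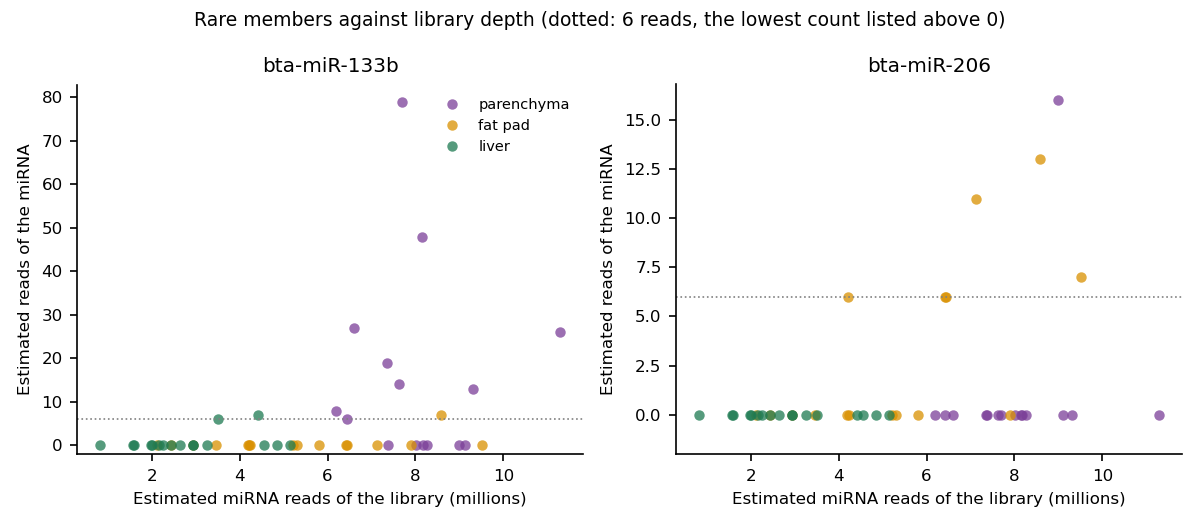
Estimated reads of miR-133b (left) and miR-206 (right) in each library, against the estimated miRNA reads of that library (axis unit 1e6), coloured by tissue. The dotted line marks 6 reads, the lowest count listed above 0. miR-133b reaches 79 reads in parenchyma and 7 in fat pad and liver, and miR-206 reaches 16 reads in parenchyma and 13 in fat pad, with every liver at 0.

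The rule of the group asked for carry-over of muscle to be kept in view. The 5 members are the defining markers of striated muscle in the table. miR-206 was at 0 in 41 of 48 samples and miR-133b in 36, while the summed level of the 5 members lay between 658 and 2657 in parenchyma, 591 and 3277 in fat pad and 184 and 3625 in liver. Smooth muscle miR-143 and miR-145 summed to at least 128795 in every sample. The 8 rows of a wider muscle-linked list (miR-486, miR-378, miR-22, miR-128), which blood and fat express as well, had 2 higher and 5 lower in parenchyma against fat pad, 0 higher and 3 lower in parenchyma against liver, and, of 7 tested, 2 higher and 4 lower in fat pad against liver, where 79.5%, 73.8% and 78.5% of all miRNAs passed. A part of muscle carry-over in the tissue differences was not tested. In such bulk tissue, fewer cells of a type and less RNA per cell cannot be told apart.

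The feeding comparisons asked first whether ad libitum milk replacer changed the members relative to the restricted amount. In liver, miR-133a was lower after ad libitum feeding. Its normalised read counts in the 6 ad libitum livers were 129, 55.8, 29.9, 46.9, 112 and 83.5 for replicates 3, 6, 7, 9, 11 and 15, which rest on 9 to 59 reads each. In the 6 restricted livers they were 436, 142.8, 348, 376, 168 and 174 for replicates 4, 5, 8, 10, 13 and 16, on 41 to 219 reads. Every ad libitum liver was below every restricted liver. The means were 76.2 ± 38.9 and 274 ± 127 (SD, n = 6 each), and the log2 fold change was -1.87 (SE 0.39, 95% confidence interval -2.68 to -1.06, limma, adjusted p = 0.0325). miR-133a was the 1 miRNA of 309 that passed in this comparison (0.324%), and 15 had an unadjusted p under 0.05. Those 15 are close to the share that a threshold of 0.05 gives by chance. miR-133a was also the 1 of 309 whose ad libitum values all lay below the restricted ones (0.324%). This count rests on the same values as the test and is no separate support.

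The call rested on few reads and depended on single samples. It passed in 10 of the 17 fits that left out 1 liver, with an adjusted p from 0.0152 to 0.139 and a log2 fold change from -2.05 to -1.64. The 7 livers whose absence ended the call were ad libitum replicates 6, 7 and 9, restricted replicates 4, 8 and 10 and control replicate 21. Without the filter on low means the adjusted p was 0.0930, with libraries rescaled to an equal sum it was 0.107 at a log2 fold change of -1.63, and with log2 reads as a covariate it was 0.0252 at -1.92. The ad libitum livers held 826776 to 5146724 reads and the restricted livers 1581934 to 4857078.

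The control livers fell between. Their miR-133a values were 271, 213.7, 152, 130 and 215 for replicates 1, 2, 18, 19 and 21 (196.3 ± 56.1, SD, n = 5). The lowest of them, 130, was just above the highest ad libitum liver, 129, so these groups did not overlap either, which held for 3.24% of miRNAs in that direction, and this pair of groups was not tested. Between ad libitum and restricted livers 1 of all 309 miRNAs passed by limma and 15 had an unadjusted p under 0.05. The 9 other marker lists, which include the muscle-linked one and give gene copies separate rows, had 39 distinct rows tested, and 0 passed. The log2 fold changes of these rows ran from -1.50 (an adipocyte-linked miRNA) to 0.82, against -1.87 for miR-133a. The part of other cell types in the miR-133a difference was not tested. The hepatocyte sum was 974851 to 1497400 in ad libitum and 970063 to 1763630 in restricted livers, the smooth muscle sum 272661 to 476271 and 348901 to 772456, and the wider muscle-linked sum 34510 to 86714 and 46138 to 59950.

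miR-1 in the same livers gave 1147, 421, 354, 1355, 1096 and 64.4 in ad libitum replicates 3, 6, 7, 9, 11 and 15. The restricted livers gave 2914, 1233, 995, 546, 1836 and 1441 for replicates 4, 5, 8, 10, 13 and 16. The groups overlapped, and ad libitum replicate 15, at 27 reads, was far below the rest. The log2 fold change was -1.38 (SE 0.56, 95% confidence interval -2.55 to -0.21, limma, adjusted p = 0.732), and -0.79 to -1.66 over the fits that left out 1 liver, so miR-1 did not pass. miR-499 had a log2 fold change of -0.58 (SE 0.43, limma, adjusted p = 0.867) and ranged from 35.8 to 138 in ad libitum and from 70.4 to 275 in restricted livers. miR-133b and miR-206 were at 0 in all 12 livers of milk replacer fed animals.

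In fat pad, miR-133a was also lower after ad libitum feeding. The ad libitum fat pads had 78.9, 93.2, 83.4, 80.1, 207.8 and 70.3 for replicates 3, 6, 7, 9, 11 and 15 (102 ± 52.2, SD, n = 6). The restricted fat pads had 216, 217, 98.3, 334, 178 and 160 for replicates 4, 5, 8, 10, 13 and 16 (201 ± 78.7, SD, n = 6). All ad libitum values but that of replicate 11 lay below every restricted value, and replicate 11 lay among the restricted ones. The log2 fold change was -0.98 (SE 0.31, 95% confidence interval -1.64 to -0.32, limma, adjusted p = 0.0418), where 16.6% of 301 miRNAs passed in either direction and 6.98% were lower. The call was lost without the filter (adjusted p = 0.0654), after rescaling (-0.81, adjusted p = 0.0697), with log2 reads as a covariate (-1.002, adjusted p = 0.0545) and in 11 of the 16 fits that left out 1 sample. The samples whose absence left the call in place were ad libitum replicate 11, restricted replicate 8 and control replicates 2, 18 and 19, and over all 16 fits the log2 fold change ranged from -1.21 to -0.82 and the adjusted p from 0.0115 to 0.0881.

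miR-1 and miR-499 in fat pad did not pass. miR-1 ranged from 465 to 2259 with a median of 724 in ad libitum and from 488 to 2820 with a median of 1236 in restricted fat pads (log2 fold change -0.54, SE 0.40, limma, adjusted p = 0.372). The high ad libitum value belonged to replicate 11, which was also the high one for miR-133a. miR-499 ranged from 45.0 to 125 and from 67.8 to 122.2 (log2 fold change -0.29, SE 0.24, limma, adjusted p = 0.424). Of the 36 distinct rows tested from the other marker lists, 3 were higher after ad libitum feeding, miR-365-5p, miR-378-1 and miR-378-2, and 1 was lower, miR-199b (named after their values were seen). Gene copies such as those of miR-378 count as separate rows. The miR-378 rows stand in both the adipocyte-linked and the muscle-linked list, and their direction was opposite to that of miR-133a. The adipocyte-linked sum was 114210 to 162941 in ad libitum and 58916 to 129069 in restricted fat pads. A sum mostly reflects its highest rows. The muscle-linked sum, which shares the miR-378 rows, was 131193 to 178978 and 70350.5 to 143816. Of the 7 adipocyte-linked rows tested, 3 were higher and 0 lower, with a median log2 fold change of 0.12 (-0.25 to 0.84). The part of adipocyte-linked miRNAs in the miR-133a difference was not tested.

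In parenchyma no miRNA of 339 passed between ad libitum and restricted feeding by limma (0%), and 0 had an unadjusted p under 0.05. miR-133a was 198.95 to 377 with a median of 288 in ad libitum samples and 158 to 383 with a median of 250.5 in restricted ones. Its log2 fold change was 0.16 (95% confidence interval -0.41 to 0.74, limma, adjusted p = 0.980). miR-1 had a log2 fold change of -0.02 (95% confidence interval -0.90 to 0.87) and miR-499 of -0.33 (-0.97 to 0.31), both with an adjusted p of 0.980 by limma. miR-1 and miR-499 were both highest among ad libitum samples in replicate 7, at 2298 and 130.

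**Figure D4:**
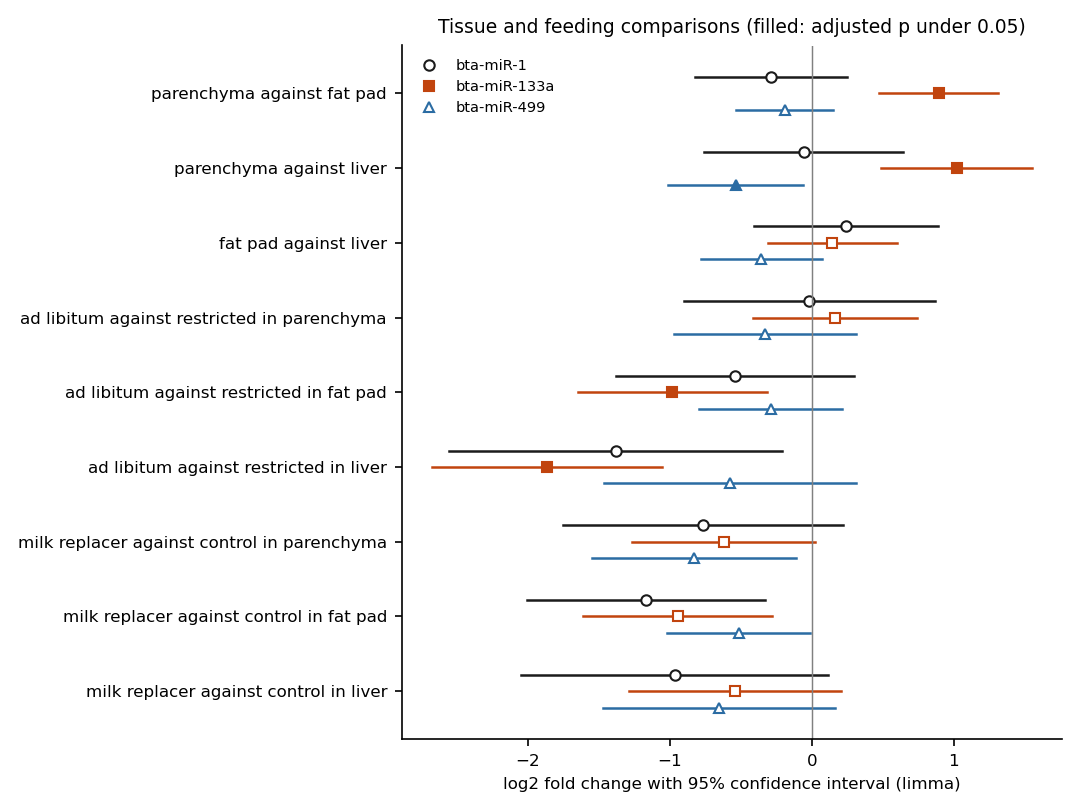
log2 fold change with 95% confidence interval from limma for miR-1, miR-133a and miR-499 in the 3 tissue comparisons and the 6 feeding comparisons, the first-named group against the second. Filled symbols have an adjusted p under 0.05: miR-133a in parenchyma against fat pad (0.89) and against liver (1.02) and in ad libitum against restricted fat pad (-0.98) and liver (-1.87), and miR-499 in parenchyma against liver (-0.54).

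Whether the effect of ad libitum feeding differed between tissues was tested in 1 limma fit over the 48 samples. For miR-133a the log2 fold change in parenchyma exceeded that in liver by 2.03 (SE 0.48, 95% confidence interval 1.07 to 2.99, adjusted p = 0.0356). It was the 1 of 345 miRNAs that passed (0.29%), and 9 had an unadjusted p under 0.05. The call held in 34 of 48 fits that left out 1 sample, with values from 1.80 to 2.22, and was lost without the filter (adjusted p = 0.0571) and on rescaling (1.87, adjusted p = 0.0889). The 14 samples whose absence ended it (adjusted p up to 0.125) were ad libitum replicates 3, 6, 9 and 15 and restricted replicates 4, 5, 13 and 16 of parenchyma, and ad libitum replicates 6, 7 and 9 and restricted replicates 4, 8 and 10 of liver. Parenchyma minus fat pad was 1.14 (SE 0.48, limma, adjusted p = 1) and fat pad minus liver 0.89 (SE 0.48, limma, adjusted p = 0.586), where 0 miRNAs passed in either (11 and 28 at an unadjusted p under 0.05). For miR-1 the differences were 0.52, 1.36 and 0.84 in that order of parenchyma minus fat pad, parenchyma minus liver and fat pad minus liver, with adjusted p = 1, 0.985 and 0.748 by limma. For miR-499 they were -0.04, 0.25 and 0.29, with adjusted p = 1, 0.985 and 0.871 by limma. These 3 differences share their samples in pairs.

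The second feeding comparison set both milk replacer groups against the control diet. All 9 log2 fold changes of the 3 tested members were negative, and 0 of 9 passed by limma, with 4 at an unadjusted p under 0.05. The 3 members share their libraries, and 45.4% of 339 miRNAs passed in parenchyma, 11% of 301 in fat pad and 6.8% of 309 in liver. The direction of the 9 values is therefore given as a description.

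In fat pad miR-1 and miR-133a came near the threshold, as did miR-499 in parenchyma. miR-1 was 2570, 1523, 2226 and 2183 in control replicates 2, 18, 19 and 21, and 465 to 2820 with a median of 761 in the 12 milk replacer samples. Only ad libitum replicate 11 and restricted replicate 10 exceeded the lowest control. The log2 fold change was -1.17 (SE 0.40, 95% confidence interval -2.01 to -0.33, limma, adjusted p = 0.0626), and it passed when either of these 2 samples was left out (lowest adjusted p 0.0176). Other fits moved away from the threshold. The adjusted p by limma reached 0.145 with 1 other sample left out, 0.101 on rescaling and 0.0808 without the filter. miR-133a was 438, 154, 285 and 229 in the same controls and 70.3 to 334 with a median of 129 in the others (log2 fold change -0.95, SE 0.31, limma, adjusted p = 0.0571). It passed without ad libitum replicate 11, restricted replicate 10 or control replicate 18 (lowest adjusted p 0.0205). For miR-133a the adjusted p by limma reached 0.167 with 1 other sample left out, 0.123 on rescaling and 0.0808 without the filter. miR-499 was 110 to 175 in the controls and 45.0 to 125 in the others (log2 fold change -0.52, SE 0.24, limma, adjusted p = 0.146).

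In parenchyma the control samples were those without epithelial markers. miR-1 was 2224, 581 and 2021 in control replicates 1, 2 and 18, against 412 to 2298 with a median of 755 in the 12 others (log2 fold change -0.77, SE 0.47, limma, adjusted p = 0.200). Control replicate 2 was the low one, and without it the log2 fold change was -1.39 (adjusted p = 0.0256). With 1 other sample left out the adjusted p of miR-1 by limma reached 0.567, and on rescaling it was 0.478. miR-133a was 304, 560 and 383, so that replicate 2 was here the highest, against 158 to 383 in the others (-0.62, SE 0.31, limma, adjusted p = 0.114). miR-499 was 121, 157 and 123 against 44.7 to 134 (-0.83, SE 0.34, limma, adjusted p = 0.0564), and it passed without ad libitum replicate 7 or restricted replicate 8 (lowest adjusted p 0.0182). For miR-499 the adjusted p by limma reached 0.143 with 1 other sample left out, 0.268 on rescaling and 0.102 without the filter. In these 3 controls the smooth muscle sum was 448353 to 671704 against 128795 to 212610 in the 12 others, the endothelial sum 172748 to 426786 against 52569 to 106702, and the adipocyte-linked sum 16812 to 159541 against 4530 to 30762. Feeding group and tissue makeup cannot be told apart in this comparison.

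In liver the milk replacer samples had a miR-1 range of 64.4 to 2914 with a median of 1121, against 981 to 2465 with a median of 1643 in the 5 controls (log2 fold change -0.96, SE 0.52, limma, adjusted p = 0.334). miR-133a gave -0.54 (SE 0.36, limma, adjusted p = 0.431), since the 2 milk replacer groups lay on either side of the controls. miR-499 was 105 to 440 in the controls and 35.8 to 275 in the others (-0.65, SE 0.39, limma, adjusted p = 0.383). The effects of milk replacer against control were not shown to differ between tissues for any tested member (limma, adjusted p from 0.699 to 0.931), whereas 25.8% of all 345 miRNAs passed for parenchyma minus fat pad, 40.3% for parenchyma minus liver and 11.3% for fat pad minus liver.

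The 9 groups were ordered by their mean on the log2 scale, and each gap between neighbours was set against their pooled SD. Sorting makes small gaps between neighbours likely, so the order is given as a description. For miR-1 the fat pad controls were highest (2125 ± 437, n = 4), then the liver controls (1667 ± 562, n = 5) and parenchyma controls (1608 ± 896, n = 3), the restricted livers (1494 ± 819, n = 6) and restricted fat pads (1313 ± 830, n = 6). The restricted parenchyma (862 ± 316), ad libitum parenchyma (952 ± 689), ad libitum fat pads (905 ± 676) and ad libitum livers (739.5 ± 525) followed, each with n = 6 and errors as SD. In none of the 8 pairs of neighbours did the gap exceed their pooled SD. For miR-133a the order was parenchyma controls (416 ± 131), ad libitum parenchyma (285 ± 72.8), fat pad controls (277 ± 120), restricted livers (274 ± 127), restricted parenchyma (258 ± 84.0), liver controls (196.3 ± 56.1), restricted fat pads (201 ± 78.7), ad libitum fat pads (102 ± 52.2) and ad libitum livers (76.2 ± 38.9). There 2 of 8 gaps exceeded the pooled SD, that from parenchyma controls to the next group and that from restricted to ad libitum fat pads. For miR-499 the liver controls were highest (204 ± 138) and the ad libitum parenchyma lowest (70.7 ± 31.2), and 1 of 8 gaps exceeded the pooled SD, that from fat pad controls (130 ± 30.4) to restricted fat pads (101 ± 20.1).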

How the data were processed

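Total RNA of bovine mammary parenchyma, mammary fat pad and liver was made into small RNA libraries with the NEBNext Multiplex Small RNA kit (per the labels). The authors deposited 1 table of 524 miRNAs by 48 samples. The deposited values are read counts scaled by a size factor that is constant within a library, and the authors' processing notes, per the labels, list DESeq2, Trim Galore, FastQC and bcl2fastq without versions. The study's own comparison of miRNA programs used miRBase and the UMD bovine assembly, but for the deposited table the program, build and database are not given by any source used here. In each library all low values (up to 20 times the smallest) were whole multiples, within 0.01, of a step equal to 1/6 of the smallest value above 0. Depth was estimated by taking this step as 1 read, and it rests on that reading. The table could not be split by the automatic unit check because of a second pair of quotes, so no count test was run. Columns holding the authors' own comparisons (fold change, standard error, statistic and p-values) were not used, and the number of other columns of per-sample values was 0.

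Samples were grouped by the tissue and treatment labels. No label says that samples of a group are separate animals, so p-values measure the spread between these samples. Tests used log2(value + 1), on which folds of low miRNAs are understated, for miRNAs with a mean of at least 10 in the samples fitted, with limma 3.58.1 in R 4.3.3. P-values were adjusted by Benjamini-Hochberg over all miRNAs tested, with a threshold of 0.05. Tissues were compared with feeding as a covariate, feeding groups within each tissue, and the difference of feeding effects over all 48 samples. Ratios and relations were tested by two-sided permutation tests with 100000 resamples (scipy 1.17.1). Named miRNAs were the 5 members, the 5 most like each tested member, and the marker lists. Alternatives were a pseudocount of 10, no filter, rescaling to a sum of 1000000, tissue alone, a replicate block, leaving out each replicate, leaving out the control parenchyma samples, and, added after seeing the data, log2 reads as a covariate and further fits of the differences between tissues. The members and lists were chosen with earlier results of these data known. Reads without molecular identifiers are not independent molecules. Mature miRNA sequences were not used here.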

Additional observations from a re-analysis of the deposited data

Results flagged for a closer look

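Of 24 combinations of a tested member and a group of 4 to 10 samples, 5 had an outlying highest or lowest sample. Its gap to the nearest neighbour, as a share of the range, exceeded Dixon's 95% critical value. Gaps were taken on normalised read counts, not on log2 values, for which they were not examined. Chance gives about 1 in 20 for normally distributed values, so for these counts that rate is only a rough guide. Parenchyma ad libitum replicate 7 was high for both miR-1 (2298, next 973) and miR-499 (130, next 75.2). Fat pad ad libitum replicate 11 was high for both miR-1 (2259, next 763) and miR-133a (207.8, next 93.2). Liver control replicate 2 was high for miR-499 (440, next 188).

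The effect of ad libitum against restricted feeding on miR-133a differed between parenchyma and liver by 2.03 on the log2 scale (limma, adjusted p = 0.0356), with the effect negative in liver and near 0 in parenchyma.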

How the results depend on the processing

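A pseudocount of 10 (tissue, feeding and difference fits) and the tissue term alone (tissue fits) changed no call and no direction of a member. Without the filter, miR-499 in parenchyma against liver (-0.54, adjusted p = 0.0511) and miR-133a in ad libitum against restricted fat pad (-0.98, 0.0654) and liver (-1.87, 0.0930) and in parenchyma minus liver (2.03, 0.0571) no longer passed by limma. Rescaling to an equal sum ended the calls of miR-133a in ad libitum against restricted fat pad (-0.81) and liver (-1.63) and in parenchyma minus liver (1.87). Rescaling turned the sign of miR-1 (0.14) and miR-499 (0.22) in parenchyma against fat pad, of miR-1 (0.54) and miR-499 (0.060) in parenchyma against liver, of miR-1 in ad libitum against restricted parenchyma (0.062), of milk replacer against control in parenchyma minus liver for miR-133a (0.45) and miR-499 (0.37) and in fat pad minus liver for miR-1 (0.20), and of r of miR-1 and miR-133a in parenchyma (-0.047). Without the control parenchyma samples miR-499 in parenchyma against liver was -0.58 (adjusted p = 0.0523), and with log2 reads as a covariate miR-133a in ad libitum against restricted fat pad was -1.002 (0.0545). The cause of these changes was not tested. The number of miRNAs past the threshold fell from 1 to 0 for ad libitum against restricted liver, and for the same contrast in parenchyma minus liver, without the filter and on rescaling, from 39 to 24 for milk replacer against control in fat pad minus liver without the filter, and from 21 to 13 for milk replacer against control liver with log2 reads. With a pseudocount of 10 it rose from 0 to 1 for ad libitum against restricted in parenchyma minus fat pad and in fat pad minus liver.

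Leaving out 1 replicate at a time changed a call or a direction for these results (lowest and highest log2 fold change). In parenchyma against liver, miR-1 ranged from -0.29 to 0.072 and miR-499 from -0.63 to -0.46 (passing in 21 of 32 fits). In fat pad against liver, miR-499 ranged from -0.45 to -0.27, passing without ad libitum liver replicate 15. For ad libitum against restricted, miR-1 in parenchyma ranged from -0.32 to 0.18, miR-133a in liver from -2.05 to -1.64, miR-133a in fat pad from -1.21 to -0.82 and its difference of parenchyma minus liver from 1.80 to 2.22. For milk replacer against control, miR-1 in parenchyma ranged from -1.39 to -0.42, miR-499 in parenchyma from -0.93 to -0.71, miR-1 in fat pad from -1.32 to -1.05 and miR-133a in fat pad from -1.19 to -0.69. The log2 ratio of miR-1 to miR-133a in fat pad minus liver ranged from -0.12 to 0.21. The leave-one-out, filter, pseudocount and block fits of differences between tissues were added after seeing the data. For the other 17 differences of the tested members, 0 of 816 such fits passed (lowest adjusted p 0.421). Counts past the threshold ranged from 0 to 1 for ad libitum against restricted liver, from 32 to 58 for the same comparison in fat pad, and for milk replacer against control from 9 to 24 in liver and from 20 to 44 in fat pad.

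The labels do not say that a number marks an animal, and the data do not settle it. Same-numbered samples had correlations of their deviations from -0.08 to 0.47 in parenchyma and fat pad (7 of 14 above 0.1), -0.11 to 0.33 in parenchyma and liver (6 of 15) and -0.17 to 0.26 in fat pad and liver (11 of 16). With the replicate block miR-133a was 0.95 (adjusted p = 0.00175) in parenchyma against fat pad and 0.99 (0.00758) in parenchyma against liver, and no call of a member changed in the 3 tissue comparisons, with 262, 247 and 253 calls in place of 267, 253 and 255. In the differences of feeding effects the block ended the call of miR-133a in ad libitum against restricted, parenchyma minus liver (2.03, adjusted p = 0.0501, so 0 calls in place of 1), and gave 23 calls in place of 39 for milk replacer against control, fat pad minus liver. The ratio of miR-1 to miR-133a within same-numbered pairs differed by -1.25 in parenchyma minus fat pad (14 pairs, exact sign-flip permutation tests, adjusted p = 0.0022), -1.08 in parenchyma minus liver (15 pairs, 0.0201) and 0.071 in fat pad minus liver (16 pairs, 0.858). Depth limits miR-133b and miR-206 most: in the shallowest liver, 6 reads amount to a value of 37.2.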
